A study of Mus musculus with 146 samples.

Results

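The 196 genes described here are those of the authors' cluster 3 in microglia that do not belong to its best-known families. Cluster 3 is the group of genes whose ribosome-bound mRNA was high at the clinical maximum of experimental autoimmune encephalomyelitis (EAE). The members were chosen from the deposited table of 716 genes by cluster number. In it 262 genes carry cluster number 3, and 66 of them were set aside by name. The list of names covered antigen presentation, proteasome, GBP, IFI, OAS, IRF, STAT, SOCS, chemokine, cathepsin and complement genes. It also held single symbols, lysosomal, surface receptor, lipid and redox genes among them. Sizes and medians of the role groups below therefore need not be those of all of cluster 3. The authors' finer cluster labels place 86 of the members in 3a and 110 in 3b. Because the clusters were built from the same anti-HA libraries, the anti-HA stage values below are a description of the chosen genes and carry no test. The name fits the values in 188 members, whose highest anti-HA stage mean was at maximum. The other 8 were highest at initiation (Fcgr4, Hlx, Hsd17b12, Mlkl, Msn, Pomp, Rspo1 and Samhd1).

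RNA was sequenced from the brains of F1 mice of C57BL/6 and SJL parents that carried Cx3cr1-CreER:RPL22-HA. In these RiboTag mice, tamoxifen switches on an HA-tagged ribosomal protein in cells that express Cre, so that anti-HA beads pull down ribosomes with their mRNA from microglia without cell sorting. Cx3cr1 is also expressed by border-associated macrophages and by blood monocytes, so the tag marks a promoter's cells and not one cell type alone. All mice, those not immunized included, had received tamoxifen at 4 to 6 weeks of age, 4 oral doses of 5 mg on alternate days; the age at sampling is not given. The stages were non-immunized (n = 6), initiation (n = 4), maximum (n = 6), remission (n = 8), cure (n = 5) and relapse (n = 4), each with an anti-HA, an IgG1 control and a whole-homogenate input library. The treatment label reads relapsing-remitting EAE in every library, including those titled non-immunized. A second set held Cx3cr1-CreER:RPL22-HA mice with EAE, Ifngr ko/fl (n = 4) and Ifngr ko/wt (n = 4), in the same 3 fractions. The ko/wt controls therefore also lacked one working Ifngr allele, and the titles give no stage for this set. The labels do not say whether libraries came from separate animals, so p-values measure the spread between libraries. Values are the authors' normalized counts, whole reads divided by a library's size factor.

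EAE is an autoimmune inflammation of the central nervous system that follows immunization with myelin antigen. Autoreactive T cells that enter the brain secrete interferon-γ, which binds the receptor encoded by Ifngr1 and Ifngr2 and acts on promoters through GAS elements of the form TTCNNNGAA. Type I interferon instead acts mainly through ISRE elements, whose core is GAAA repeated after 2 free bases, and Toll-like receptors and TNF act largely through NF-kappaB. Activated microglia are known to enlarge their lysosomes, to raise Fc and paired receptors, and to assemble the NADPH oxidase that makes superoxide.

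Promoters of 6 members are shown because the results below turn on interferon-γ receptor loss and on NF-kappaB and oxidase genes. Each window is the 250 bases before the gene start in RefSeq (GRCm38.p6), read 5′ to 3′ on the gene's strand, with matches on either strand in capitals. The first 4 were the members with the largest falls in Ifngr ko/fl microglia among those whose window held the ISRE core or TTCNNNGAA. Members with larger falls but no such match or no window were passed over, Il12rb1, Il18bp and Ly6a among them. A match in each of the 4 was therefore fixed by the choice. In these windows the capitals mark the ISRE core or TTCNNNGAA. In Cybb they mark the ISRE core, and in Nfkb2 the NF-kappaB motif; these genes were picked after their matches were seen, Cybb as the member with the most ISRE core matches and Nfkb2 with the most NF-kappaB matches, a tie with Tnip1 that was settled by the higher anti-HA mean at maximum.
Serpina3f (chr12:104214294-104214543, plus strand): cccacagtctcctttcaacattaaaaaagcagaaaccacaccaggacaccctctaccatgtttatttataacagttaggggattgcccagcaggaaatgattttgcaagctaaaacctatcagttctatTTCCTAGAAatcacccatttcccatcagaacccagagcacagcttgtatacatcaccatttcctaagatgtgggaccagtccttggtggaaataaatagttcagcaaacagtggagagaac
Serpina3g (chr12:104235897-104236146, plus strand): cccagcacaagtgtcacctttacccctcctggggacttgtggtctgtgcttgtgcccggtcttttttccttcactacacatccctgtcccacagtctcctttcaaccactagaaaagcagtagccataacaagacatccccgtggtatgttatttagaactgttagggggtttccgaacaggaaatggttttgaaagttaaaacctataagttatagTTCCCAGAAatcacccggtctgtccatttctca
Slamf8 (chr1:172590569-172590818, minus strand): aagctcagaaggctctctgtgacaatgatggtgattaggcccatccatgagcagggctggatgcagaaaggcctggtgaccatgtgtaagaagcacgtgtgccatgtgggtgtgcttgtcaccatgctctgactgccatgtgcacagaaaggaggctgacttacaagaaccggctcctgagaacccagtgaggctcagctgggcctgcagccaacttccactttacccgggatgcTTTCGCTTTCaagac
Fcgr4 (chr1:171018676-171018925, plus strand): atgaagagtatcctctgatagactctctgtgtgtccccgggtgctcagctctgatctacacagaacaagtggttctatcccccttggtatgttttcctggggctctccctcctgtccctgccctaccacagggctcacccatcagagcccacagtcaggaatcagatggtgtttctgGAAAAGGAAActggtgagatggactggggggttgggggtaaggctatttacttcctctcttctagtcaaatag
Cybb (chrX:9469325-9469574, minus strand): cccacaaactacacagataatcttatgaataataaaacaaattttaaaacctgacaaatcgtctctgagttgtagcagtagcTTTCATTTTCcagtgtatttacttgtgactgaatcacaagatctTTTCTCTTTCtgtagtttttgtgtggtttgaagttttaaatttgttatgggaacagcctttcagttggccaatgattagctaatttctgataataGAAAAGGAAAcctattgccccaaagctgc
Nfkb2 (chr19:46304487-46304736, plus strand): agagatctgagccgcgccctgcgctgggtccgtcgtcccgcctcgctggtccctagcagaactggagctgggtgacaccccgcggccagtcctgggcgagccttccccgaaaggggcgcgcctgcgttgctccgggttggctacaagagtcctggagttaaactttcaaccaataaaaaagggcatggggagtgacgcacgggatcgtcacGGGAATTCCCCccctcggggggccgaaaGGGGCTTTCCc

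The neighbouring serpin genes Serpina3f and Serpina3g each held 1 TTCNNNGAA, 121 to 113 and 33 to 25 bases before the gene start. Slamf8 and Fcgr4 each held 1 ISRE core, 15 to 6 and 73 to 64 bases before it. Both strands were searched, each of several overlapping matches was counted, and TTCNNNGAA is its own reverse complement. A window was found for 154 of the 196 members and for 27025 genes in all. The ISRE core was in 4.55% of member windows, in 8% of the windows of the other genes in the stage table and in 3.04% of all windows. TTCNNNGAA was in 5.84%, 7.75% and 7.18% of these sets, and the NF-kappaB motif in 11.7%, 10.2% and 7.01%. Among the 24 members with a window that are also in the authors' Ifngr table, the ISRE core was in 3, TTCNNNGAA in 4 and the NF-kappaB motif in 2. A match describes the letters of a window and is not a bound site.

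Depth and library differences bear on every value that follows. Reads over the table's 716 genes ran from 152704 to 880410 in anti-HA libraries, 49902 to 159540 in inputs and 6775 to 162205 in IgG libraries. In the Ifngr set they ran from 136064 to 589041 in anti-HA libraries and from 46467 to 202176 in inputs. Anti-HA libraries at cure 5 and initiation 2 were high for the members relative to their stage, and non-immunized 5 was low. Over all genes of the table the median log2(value + 1) was 6.73 at cure 5, against 5.55 to 6.42 in the other cure libraries. It was 5.50 at non-immunized 5, against 5.95 to 6.07 in the others of that group. Initiation 2, with 6.99 against 6.96 to 7.21, did not stand apart over all genes. Remission 7 and 8 averaged below remission 1 to 6 in 192 of 196 members, by a median of -0.69 on the log2 scale, against -0.64 over all genes of the table. Libraries numbered 1 to 3 stood apart from those numbered 4 to 6 at maximum, below them in 23 members and above them in 37, against 14% and 10.3% of all 716 genes. The median member ratio of maximum over non-immunized was 1.61 within libraries 1 to 3 and 1.67 within libraries 4 to 6 (log2).

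Ribosome-bound mRNA of all 196 members was higher at maximum than in non-immunized mice by stage mean. Within libraries 1 to 3 alone, 2 members had a log2 ratio below 0, Dhrs3 with -0.17 and Tcn2, a cobalamin carrier named after its values were seen, with -0.11; within libraries 4 to 6 no member did (0 of 196). The log2 ratio of the means (each plus 1) had a median of 1.63 over the members, a 3.09-fold ratio, and ran from 0.22 for Dhrs3 to 6.54 for Serpina3f, a 93.0-fold ratio. It was at least 2-fold for 185 members and at least 8-fold for 30. In 176 members every library at maximum lay above every non-immunized library, against 53.6% of the table's genes; the choice of the members fixed this count, and nothing is read from it. Over the stages of initiation, maximum, remission, cure and relapse the median log2 ratio over non-immunized mice was 1.16, 1.63, 1.05, 0.37 and 0.59 for the members. Over all 716 genes it was 1.26, 1.19, 0.83, 0.26 and 0.41. In 121 members all 4 initiation libraries lay above all 6 non-immunized ones, a share close to the 59.1% of all genes. Only 13 members separated maximum from initiation in this way (2.37% of all genes), and 66 did once initiation 2 was left out (14.7% of all genes), an alternative chosen after seeing the data.

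**Figure D1:**
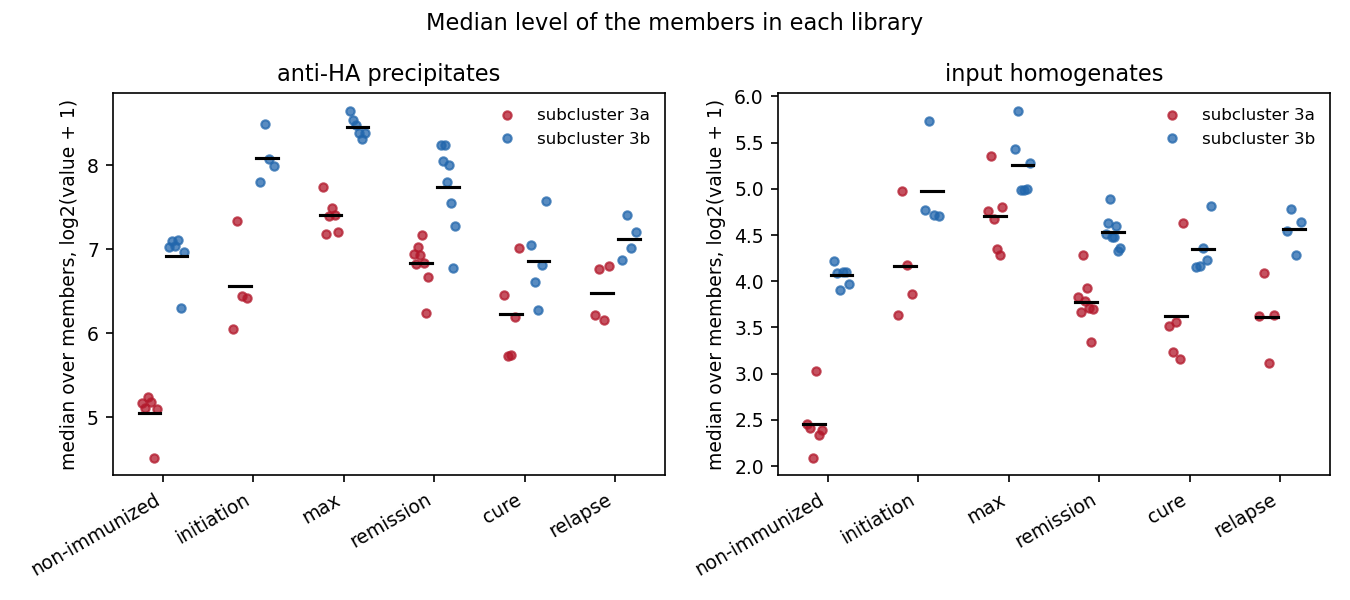
Each point is one library and gives the median over the 86 members of 3a or the 110 of 3b of log2(value + 1), in anti-HA libraries and in inputs, by stage from non-immunized to relapse. Both subclusters are highest at maximum; at cure and relapse the 3b points are close to the non-immunized ones in anti-HA libraries, while every 3a point stays above them.

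By anti-HA values the 2 subclusters differed in what was left after the maximum. Their labels belong to the authors' clustering of these same anti-HA libraries. A different course in 3a and 3b is therefore built into the labels, and the values below only describe it. Median anti-HA ratios over non-immunized mice were 1.34, 2.02, 1.51, 0.84 and 1.04 (log2) for 3a at initiation, maximum, remission, cure and relapse, and 1.14, 1.38, 0.82, 0.10 and 0.31 for 3b. As a share of the log2 difference at maximum, 75.4% was left at remission in 3a and 58.0% in 3b. At cure 49.4% was left in 3a and 7.87% in 3b, and at relapse 55.8% and 21.5%. Without cure 5 the shares at cure were 36.1% in 3a and -6.03% in 3b, and the 3b ratio was -0.08. Single libraries spread widely at cure, with member medians of 0.33 to 1.47 in 3a and -0.64 to 0.66 in 3b, and more narrowly at maximum, with 1.90 to 2.17 in 3a and 1.28 to 1.53 in 3b. All cure libraries lay above all non-immunized libraries in 26 members of 3a and 1 of 3b (11.7% of all genes), and all relapse libraries did in 50 and 13 (23.5% of all genes). In 112 members, 32 of 3a and 80 of 3b, every cure library lay below every maximum library (27.9% of all genes); without cure 5 there were 162 (53.6% of all genes). Of the 196 members, 3 had every relapse library above every cure library (1.26% of all genes): 1700003F12Rik, Fkbpl and Paox, named after their values were seen.

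Genes induced by interferon, 28 members, held the 2 largest single ratios, those of Serpina3f and Serpina3g. Serpina3f, a mouse inhibitor of serine proteases, had anti-HA values of 60.5 to 271 (median 168) at maximum, against 0 to 2.93 (median 0.484) in non-immunized mice. The gene lies on chromosome 12 from 104214544 to 104221129 on the plus strand (GENCODE annotation of mm10). Its initiation values were 13.6, 231, 9.01 and 33.4, its cure values 21.3, 6.36, 4.74, 22.9 and 73.1 and its relapse values 10.3, 29.1, 7.83 and 13.95. The gene was thus nearly silent before immunization, 1 of 4 initiation libraries was already at the level of the maximum, and 1 of 5 cure libraries stood above the others. Its neighbour Serpina3g, an inhibitor of cysteine and serine proteases, had stage means of 1.22, 101, 180.4, 51.5, 40.3 and 24.5 from non-immunized to relapse. The 2 serpins belong to a family of near-identical copies, so reads may be split between them.

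Ly6a, the GPI-anchored Sca-1 antigen, had 176 to 1359 (median 849.5) at maximum against 17.1 to 38.1 (median 27.5) in non-immunized mice, a log2 ratio of 4.75. Its initiation values of 221, 1824, 173 and 657 again had library 2 far above the rest. Xdh, the xanthine oxidoreductase of purine breakdown, had 91.0 to 129 (median 107) at maximum and 3.42 to 5.87 (median 3.80) in non-immunized mice. Lgals3bp, a secreted glycoprotein that binds galectins, averaged 3847 ± 1277 at maximum and 305 ± 68.5 in non-immunized mice (SD, n = 6 each). Batf2, a transcription factor of the AP-1 family, averaged 86.7 ± 28.7 at maximum and 7.39 ± 3.60 in non-immunized mice. Slfn2 and Samhd1 were about as high at initiation as at maximum. Slfn2 had non-immunized, initiation and maximum means of 132, 966 and 974. Samhd1, the dNTP hydrolase that limits retroviruses, had 139.6, 745 and 743. The broadly expressed members of the group had smaller ratios, which at maximum were 1.02 for Ly6e, 1.00 for Shisa5, 1.35 for the tryptophan-tRNA ligase Wars and 1.37 for Trafd1, a regulator of TRAF signalling. Over the 28 members the median log2 ratio was 1.99 at maximum, below the medians of the cytokine receptor, surface receptor and lipid groups, and the median share left at cure was 19.9%. The GBP, IRF and STAT genes set aside by name are not in this group. Its median is therefore not that of all interferon-induced genes of cluster 3.

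**Figure D2:**
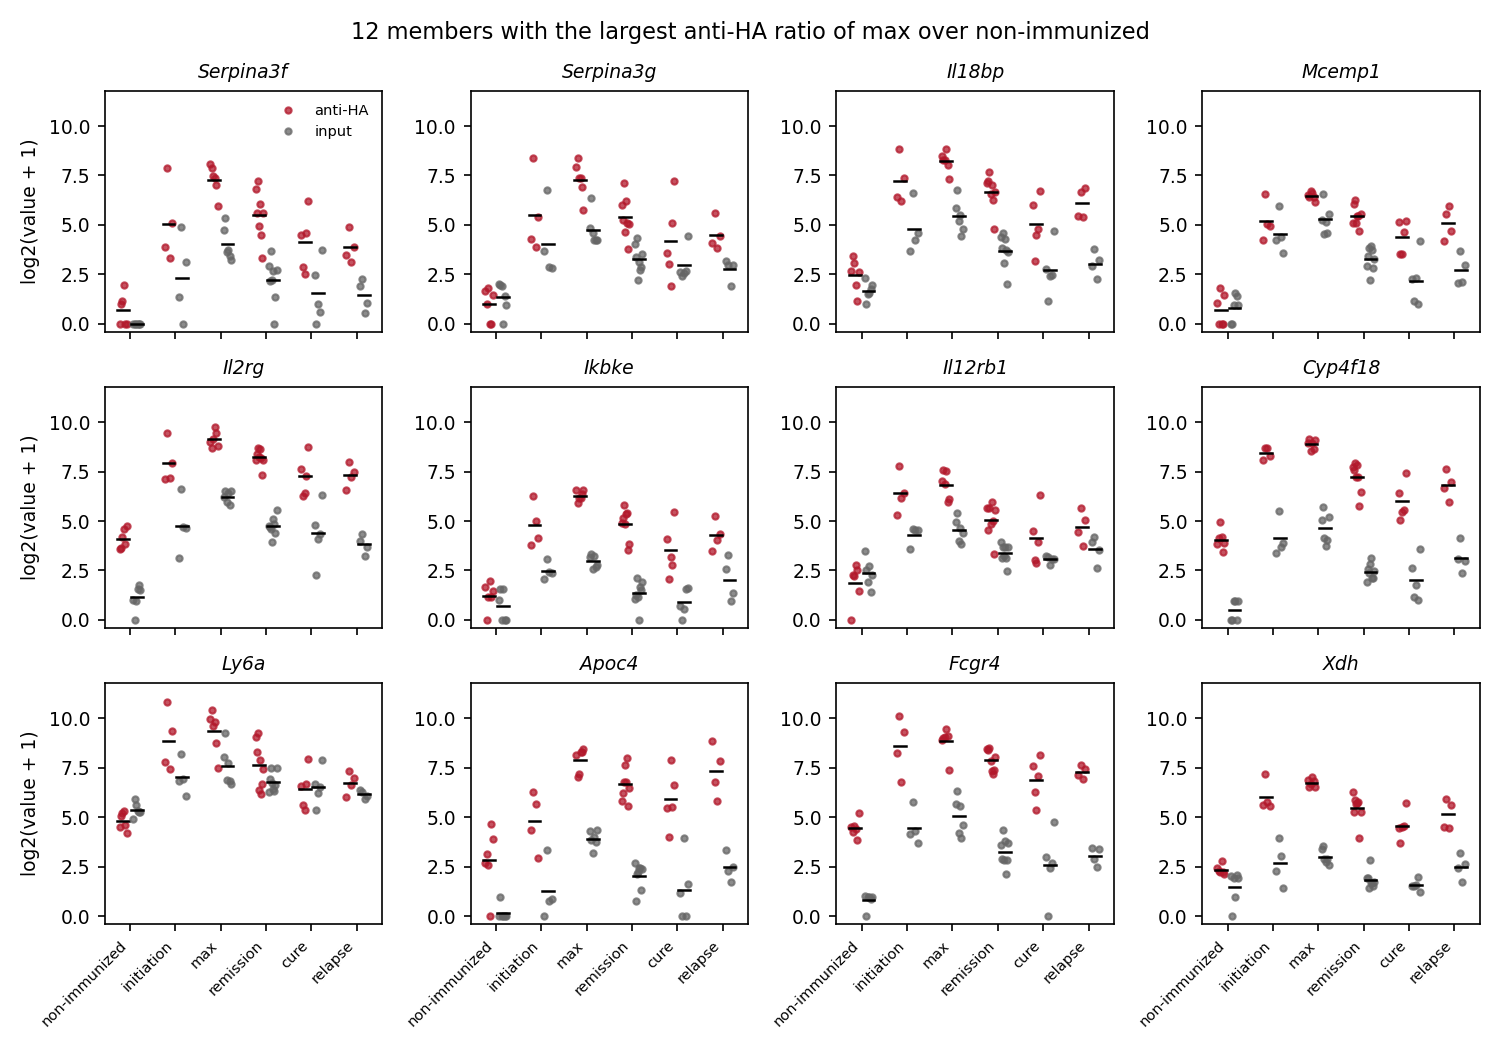
Anti-HA and input values (log2(value + 1), one point per library) of the 12 members with the largest anti-HA ratio of maximum over non-immunized, by stage. By anti-HA mean all 12 are lowest in non-immunized mice and 11 are highest at maximum; Fcgr4 is the exception, with its highest mean at initiation.

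Cytokine receptors and their signalling formed a small group of 6 members with a median log2 ratio of 3.85 at maximum, 5 of them in 3a. Il2rg, the common γ chain of the receptors for several interleukins, had 418 to 881 (median 531) at maximum and 10.9 to 25.6 (median 15.4) in non-immunized mice. Its cure values, 197, 77.1, 86.0, 154 and 423, were all above the non-immunized range. Il18bp, the secreted decoy that neutralizes an inflammasome cytokine, had 162 to 459 (median 311) at maximum and 1.21 to 9.67 (median 5.29) in non-immunized mice, with cure values of 62.5, 7.95, 21.7, 27.2 and 103. Il12rb1, the shared receptor chain of a pair of T cell-polarizing cytokines, had 62.4 to 188 (median 122) at maximum and 0 to 5.87 (median 3.80) in non-immunized mice. The myeloid growth factor receptors were less extreme: Il3ra averaged 303 ± 77.4 at maximum and 41.2 ± 7.47 in non-immunized mice, and Csf2ra 303 ± 99.6 at maximum and 74.0 ± 25.5 in non-immunized mice. For Csf2ra the cure mean was 191 and the relapse mean 216.

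Surface receptors and adhesion molecules were the largest assigned group after the interferon-induced genes, with 26 members, 18 of them in 3a, and a median log2 ratio of 2.82 at maximum. Fcgr4, an activating Fc receptor for IgG, had 169 to 712 (median 525) at maximum against 13.3 to 35.9 (median 21.2) in non-immunized mice, and 306, 1128, 110.4 and 624 at initiation. Lilrb4a, an inhibitory receptor of myeloid cells, averaged 159 ± 40.7 at maximum and 11.2 ± 6.06 in non-immunized mice. Mcemp1, a membrane protein of mast cells and myeloid cells, had 71.5 to 102 (median 88.5) at maximum and 0 to 2.49 (median 0.545) in non-immunized mice, and 17.2, 46.5, 60.4 and 24.7 at relapse. The leukocyte integrin chains Itgal and Itgb7 had log2 ratios of 4.35 and 3.69. Cd52, a small GPI-anchored glycoprotein of leukocytes, had 7105 to 9982 (median 8227) at maximum and 669.6 to 1532 (median 963) in non-immunized mice; its cure values were 2203, 1013, 924, 1538 and 3534. Slamf8, a receptor that limits oxidase activity in macrophages, averaged 40.8 ± 11 in non-immunized mice, 277 ± 80.0 at maximum and 152 ± 102 at cure. Siglec1, a sialic acid-binding lectin of macrophages, averaged 13.8 ± 7.58 in non-immunized mice, 72.1 ± 22.2 at maximum and 13.2 ± 7.75 at cure. The ATP-gated channel P2rx4 and the medium-chain fatty acid receptor Gpr84 had lower ratios, 1.80 and 1.05.

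Innate sensing, NF-kappaB and cell death held 18 members with a median log2 ratio of 1.86. Ikbke, a kinase that activates interferon regulatory factors, had 60.0 to 93.4 (median 75.9) at maximum and 0 to 2.93 (median 1.48) in non-immunized mice. Tnfaip2, a TNF-induced protein of membrane protrusions, averaged 273 ± 75.9 at maximum and 18.9 ± 7.604 in non-immunized mice. Among receptors, Tlr2, which senses bacterial lipopeptides, averaged 537 ± 117 at maximum and 109 ± 25.9 in non-immunized mice, Tlr12, a mouse sensor of profilin, 479.6 ± 77.8 at maximum and 129 ± 37.1 in non-immunized mice, and Nod1, a peptidoglycan sensor, 71.6 ± 22.1 at maximum and 16.4 ± 8.48 in non-immunized mice. The pore-forming executors of lytic death were both in the set: Gsdmd averaged 932 ± 195 at maximum and 284 ± 69.1 in non-immunized mice, and Mlkl 25.4 ± 6.75 at maximum and 1.89 ± 2.20 in non-immunized mice. The inhibitory partners were there as well, with a log2 ratio of 1.04 for Tnip1, which restrains NF-kappaB, and of 2.08 for the survival factor Bcl2a1a. Nfkb2, the precursor of a NF-kappaB subunit whose promoter is printed above, averaged 389.7 ± 44.98 at maximum and 109 ± 27.7 in non-immunized mice.

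The lysosome supplied 23 members with a median log2 ratio of 1.58, most of them already well expressed before immunization. Cathepsin genes, set aside by name, are not among them. Grn, the progranulin that is needed for lysosomal function and is mutated in a form of frontotemporal dementia, had 15614 to 19442 (median 17720.5) at maximum and 4180.2 to 8951 (median 8115) in non-immunized mice. Lamp1, a major protein of the lysosomal membrane, had 5889 to 12063 (median 9528) at maximum and 2937 to 4794 (median 4428) in non-immunized mice. The 2 ranges do not overlap for either gene, and the lowest non-immunized library was number 5 in both. Psap, the precursor of the saposins that help degrade sphingolipids, had 4103 to 14648 (median 9968) at maximum and 1259 to 7084 (median 2223) in non-immunized mice, and these ranges overlap. The overlap follows the library numbers: Psap averaged 14306 in maximum libraries 4 to 6 against 5004 in non-immunized libraries 4 to 6, and 4847 in maximum libraries 1 to 3 against 1413 in non-immunized libraries 1 to 3. The log2 ratio of Psap was 1.52 within libraries 4 to 6 and 1.78 within libraries 1 to 3. Psap was also high at relapse, with 10072, 12618, 4588 and 7009. Acp5, the tartrate-resistant acid phosphatase, averaged 39.2 ± 15.9 in non-immunized mice, 309.6 ± 95.9 at maximum and 123 ± 59.2 at cure. Pld3, a lysosomal nuclease, and Clcn7, a chloride-proton exchanger of lysosomes, had log2 ratios of 1.5 and 1.87.

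Oxidase, iron and metal genes numbered 12. Both membrane subunits of the NADPH oxidase were members. Cybb (the catalytic subunit) averaged 312 ± 95.6 at maximum and 27.6 ± 8.53 in non-immunized mice, and Cyba (its stabilizing partner) had 7481 to 11495 (median 9977) at maximum and 1823 to 4786 (median 3999.9) in non-immunized mice. The ratio was larger for Cybb, with a log2 ratio of 3.45 against 1.33 for Cyba. Prdx5, a peroxiredoxin that removes peroxides, had a log2 ratio of 1.28, the iron exporter of phagosomes Slc11a1 one of 1.21 and the ferritin light chain Ftl1 one of 1.12. Ftl1 split by library number like Psap, with means of 3332 at maximum against 1602 in non-immunized mice in libraries 4 to 6, and of 1314 at maximum against 528 in non-immunized mice in libraries 1 to 3. Ftl1 has processed copies in the genome, and its read assignment is uncertain. Over the 12 members only 6.20% of the log2 difference was left at cure, the smallest median of the 12 role groups.

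Lipid genes supplied 6 members with a median log2 ratio of 2.68, and Apoc4, Apoc1 and Cyp4f18 were at least 8-fold higher at maximum. The list of names set aside held Plin2, Fabp5 and Ch25h, so the size of this group may not be that of all lipid genes in cluster 3. Apoc4, an apolipoprotein of the Apoe gene cluster, had 130.3 to 344 (median 296) at maximum and 0 to 24.3 (median 6.59) in non-immunized mice, and 456, 108, 55.9 and 231 at relapse. At initiation it had only 19.5, 76.9, 49.6 and 6.69. Its neighbour Apoc1 had stage means of 67.0, 304, 1277, 658, 357 and 726 from non-immunized to relapse; since the 2 genes lie side by side and the strand used in counting is not stated, reads cannot be assigned to one of them with certainty. Apoc1 was named after its values were seen. Cyp4f18, which inactivates a leukotriene in mouse leukocytes, had 378 to 575 (median 499) at maximum and 9.70 to 29.9 (median 15.1) in non-immunized mice. Dhrs3, a retinal reductase, hardly differed at maximum, with 835 ± 218 against 716 ± 145 in non-immunized mice, and was lower at initiation, with 440.2, 369, 505 and 316. Hsd17b12, an enzyme of fatty acid elongation, averaged 406 ± 52.4 at maximum and 186 ± 68.7 in non-immunized mice.

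The remaining role groups had median log2 ratios of 1.35 for 19 cytoskeleton and matrix genes, 1.25 for 9 kinases and phosphatases, 1.32 for 16 other metabolic genes and 1.43 for 10 transcription and RNA genes, and 23 members with no assigned role one of 1.37. Capg, an actin-capping protein, averaged 1199 ± 201 at maximum and 534 ± 158 in non-immunized mice. The phosphatase Ptpn6 averaged 1648 ± 178 at maximum and 802 ± 197 in non-immunized mice. Atf3, a stress-induced transcription factor, averaged 40.9 ± 13.2 in non-immunized mice, 159.9 ± 50.8 at maximum and 108 ± 62.6 at cure. Pdyn, the precursor of the dynorphin opioid peptides and best known from neurons, had 87.9 to 256 (median 197) at maximum and 17.6 to 35.2 (median 31.8) in non-immunized mice. Mapkapk2, a kinase of the stress-activated MAP kinase cascade, and Pomp, which helps to assemble the proteasome, were about 2-fold higher, with log2 ratios of 1.02 and 1.12.

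**Figure D3:**
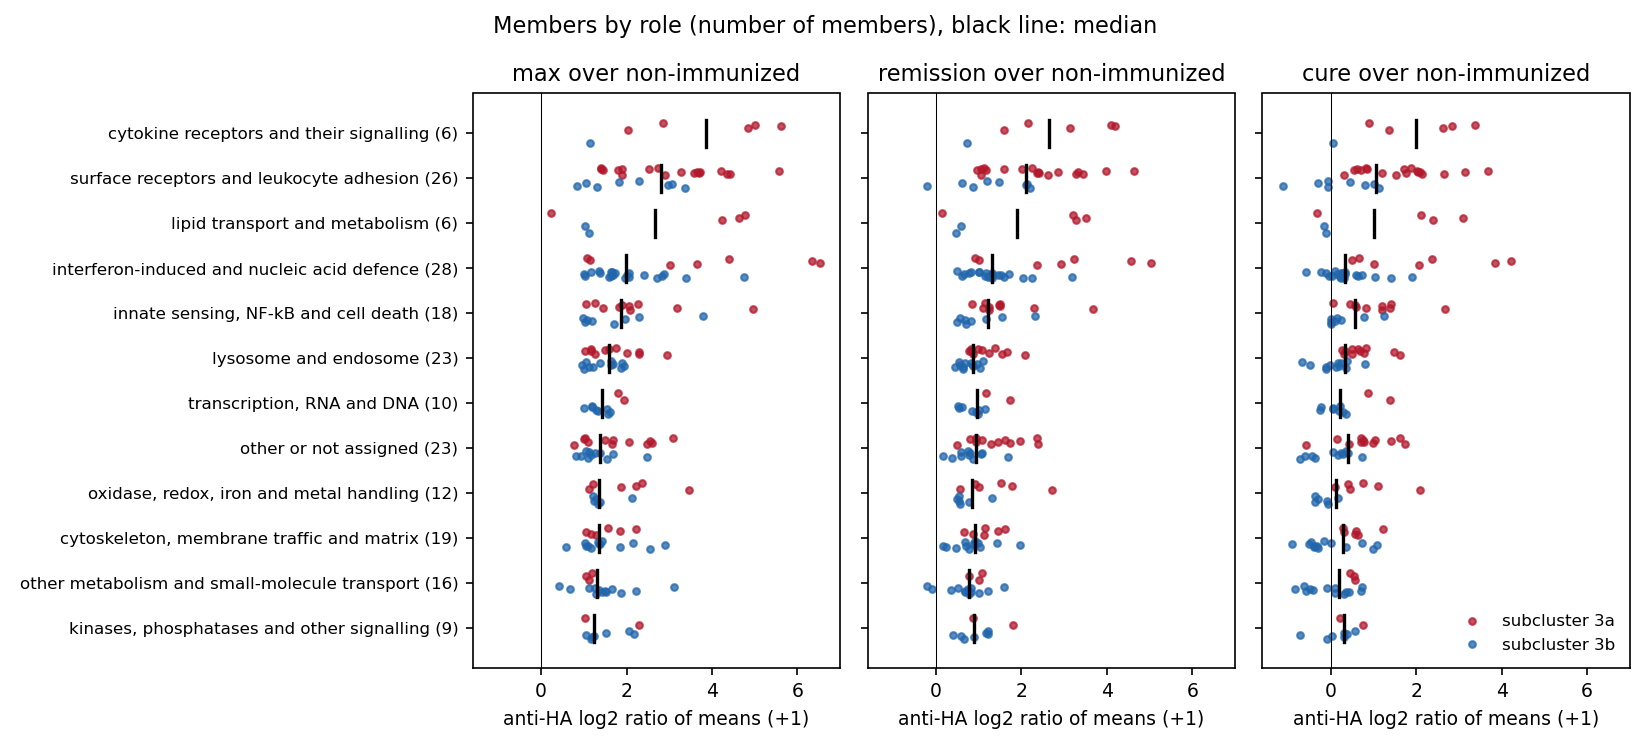
Log2 ratio of mean anti-HA value over non-immunized mice (means plus 1) at maximum, remission and cure for each member, grouped by role, with a bar at the median. Medians at maximum run from 1.25 for kinases and phosphatases to 3.85 for cytokine receptors, and every group is lower at cure.

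The pull-down enriched most members over the homogenate. The log2 ratio of the anti-HA over the input mean had a median of 2.71 at maximum and 2.18 in non-immunized mice, against 2.32 at maximum and 2.02 in non-immunized mice over all genes. It was above 0 for all 196 members at maximum. In non-immunized mice it was below 0 for 15, among them Il12rb1, Ly6a, Mcemp1, Pdyn, Rspo1 and Serpina3g, so that the low non-immunized anti-HA values of these genes are no higher than the homogenate's. Over IgG the median was 2.86 at maximum and 2.27 in non-immunized mice. The anti-HA mean was below the IgG mean for 0 members at maximum and for 12 in non-immunized mice. Il12rb1, Itgb7, Mcemp1, Serpina3g, Slc2a6 and Wars were among the 12. At cure it was below for 3 members (Itgb7, Slc2a6 and Wars) and at relapse for 1 (Wars). Pdyn shows the contrast: anti-HA values were 180.1 ± 77.1 at maximum and 29.8 ± 6.69 in non-immunized mice, while inputs were 79.5 ± 7.04 at maximum and 83.4 ± 25.7 in non-immunized mice.

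The inputs are whole-brain homogenate, were not used to choose the members, and could be tested. They sum RNA of all cells, so that more cells of a type and more RNA per cell cannot be told apart. With limma on log2(value + 1) and Benjamini-Hochberg adjustment over all 716 genes, 140 of the 196 members rose at maximum over non-immunized mice, 1 fell and 55 did not pass an adjusted p of 0.05. Over the table, whose genes were all picked by the authors for a change in anti-HA libraries, 53.4% rose and 1.82% fell. The median log2 difference was 1.03 for the members and 0.72 for all genes. It did not change with the 3 members at 0 in every non-immunized input (Klrb1b, Serpina3f and Siglec1) set to the bound of 3 counts over the group. After quantile normalization, which centres every library and moved the median of all genes by -1.18, 61 members were higher and 54 lower. Directions in the inputs are therefore relative to the authors' size factors.

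Cd52, Il2rg and Cybb were among the members with the smallest p-values in the input at maximum. Cd52 inputs were 483 to 1428 (median 644) at maximum and 15.1 to 25.2 (median 18.8) in non-immunized mice, a log2 difference of 5.18 ± 0.40 (SE), adjusted p = 8.5e-12 in limma. Cybb inputs were 50.6 to 189 (median 92.4) at maximum and 0 to 1.94 (median 1.44) in non-immunized mice, a difference of 5.42 ± 0.53 (SE), adjusted p = 3.83e-10 in limma. Il2rg inputs were 55.8 to 90.6 (median 78.3) at maximum and 0 to 2.42 (median 1.45) in non-immunized mice, a difference of 5.10 ± 0.47 (SE), adjusted p = 1.75e-10 in limma. No maximum library overlapped a non-immunized one for these 3 genes. Cyp4f18, Parp14, an ADP-ribosyltransferase that modulates interferon responses, Mcemp1, Acp5 and Ccrl2, a receptor that binds chemerin, rose as well, by 4.17, 3.73, 4.47, 4.15 and 2.77 (log2). The 1 member that fell was Etv4, an ETS-family transcription factor, with 19.1 ± 8.46 at maximum and 36.8 ± 14.9 in non-immunized inputs, a difference of -0.92 ± 0.29 (SE), adjusted p = 0.00704 in limma. In anti-HA libraries the same gene had 90.4 ± 35.8 at maximum and 28.8 ± 8.50 in non-immunized mice.

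By role, 24 of 26 surface receptors, 23 of 28 interferon-induced genes, 15 of 18 innate sensing genes, 15 of 19 cytoskeleton genes and 5 of 6 cytokine receptor genes rose in the input at maximum. Lysosomal genes did so in 16 of 23 cases, oxidase and metal genes in 7 of 12, and other metabolic genes in 7 of 16. Against the 53.4% of all genes that rose, the share of oxidase and metal genes was close to the table's and that of other metabolic genes was below it. The abundant lysosomal genes were among those not called: Lamp1 inputs averaged 1253 ± 131 at maximum and 1120.1 ± 276 in non-immunized mice, Psap 919 ± 496 at maximum and 749 ± 353 in non-immunized mice, and Pld3 910.3 ± 247 at maximum and 1172 ± 318 in non-immunized mice. Grn, in contrast, passed the test with 538 ± 138 at maximum and 156 ± 25.7 in non-immunized mice (1.76 ± 0.22 (SE), adjusted p = 4.12e-08 in limma). Lists of related genes in the table, which also hold genes other than the members, were counted too. Members made up 4 of 9, 18 of 27, 10 of 12, 8 of 12 and 6 of 11 genes of the lists named next. Their counts are therefore not separate evidence. All 9 genes listed as Fc and paired receptors rose, as did 23 of 27 listed interferon-induced genes, 10 of 12 for innate sensing and NF-kappaB, 11 of 12 for adhesion and cytoskeleton, and 8 of 11 for cytokines and receptors. Their median log2 differences were 3.65, 2.23, 2.19, 1.94 and 1.57, against 0.72 for all genes. Other functional lists ran from 5 of 5 for chemokine receptors and chemotaxis to 7 of 11 for lysosome and endosome and 1 of 3 for C-type lectins.

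For 137 members the log2 ratio of means (plus 1) of maximum over non-immunized mice was larger in anti-HA libraries than in the input. For 59 it was larger in the input. The members were chosen by their anti-HA values, which tilted this split in advance. A split over all 716 genes is not given here, and nothing is read from these counts. All 59 were called higher in the input, and 26 of them exceeded the anti-HA ratio by at least 1 log2 unit. Cd52 was one, with 5.26 in the input and 2.97 in anti-HA. Cybb (5.46 and 3.45), Cyba (3.09 and 1.33), Capg (3.31 and 1.17) and Hk3, a hexokinase of myeloid cells (3.27 and 1.51), were others. Cells other than tagged microglia contribute to the input, and blood leukocytes are known to express these genes. The marker genes of other cell types in the table are few. Of 13 monocyte markers 1 was in the table, Ms4a4c, with input means of 4.13 at maximum and 0.291 in non-immunized mice and anti-HA means of 10.1 at maximum and 1.52 in non-immunized mice. None of the listed markers of T and NK cells, B cells, astrocytes, oligodendrocytes or neurons was in the table. The 9 of 15 homeostatic microglia markers present, P2ry12 among them, summed, with Cst3 the most abundant, to 34893 to 75360.5 (median 52831) in maximum anti-HA libraries and 95637 to 204905 (median 176348) in non-immunized ones, and to 5918 to 9069.9 (median 8446) in maximum inputs and 5005 to 8045 (median 6567) in non-immunized inputs. The 7 of 10 border macrophage markers present summed to 989 to 1878 (median 1334) in maximum anti-HA libraries and 1055 to 3116 (median 2306) in non-immunized ones, and to 57.9 to 119.5 (median 101) in maximum inputs and 33.2 to 51.4 (median 41.6) in non-immunized inputs. Single markers did not all follow these sums. Anti-HA means of all 9 homeostatic markers were lower at maximum, for example 56.3 at maximum against 518 in non-immunized mice for P2ry12, 287 at maximum against 2850.3 in non-immunized mice for Fcrls and 40239 at maximum against 135247 in non-immunized mice for Cst3. In the inputs 5 of the 9 rose at maximum (P2ry13, Selplg, Siglech, Sparc and Tgfbr1), Fcrls fell by 1.27 on the log2 scale, and P2ry12, with 22.4 at maximum against 21.4 in non-immunized mice, did not pass the test. Of the border macrophage markers, Cd163, which is a member, and F13a1 had higher anti-HA means at maximum, 307 at maximum against 171 in non-immunized mice and 278 at maximum against 166 in non-immunized mice, and the other 5 had lower ones. In the inputs Cd163, F13a1 and Cbr2 rose. The neutrophil marker Mmp9 rose in the input, by 0.89 (log2), with anti-HA means of 51.1 at maximum against 125 in non-immunized mice. Of the dendritic cell markers Siglech, Cd209a and Fscn1 only Siglech rose in the input, and the endothelial marker Pecam1 did not pass, with a difference of 0.44. The part of these cells in the members' input changes was not tested.

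**Figure D4:**
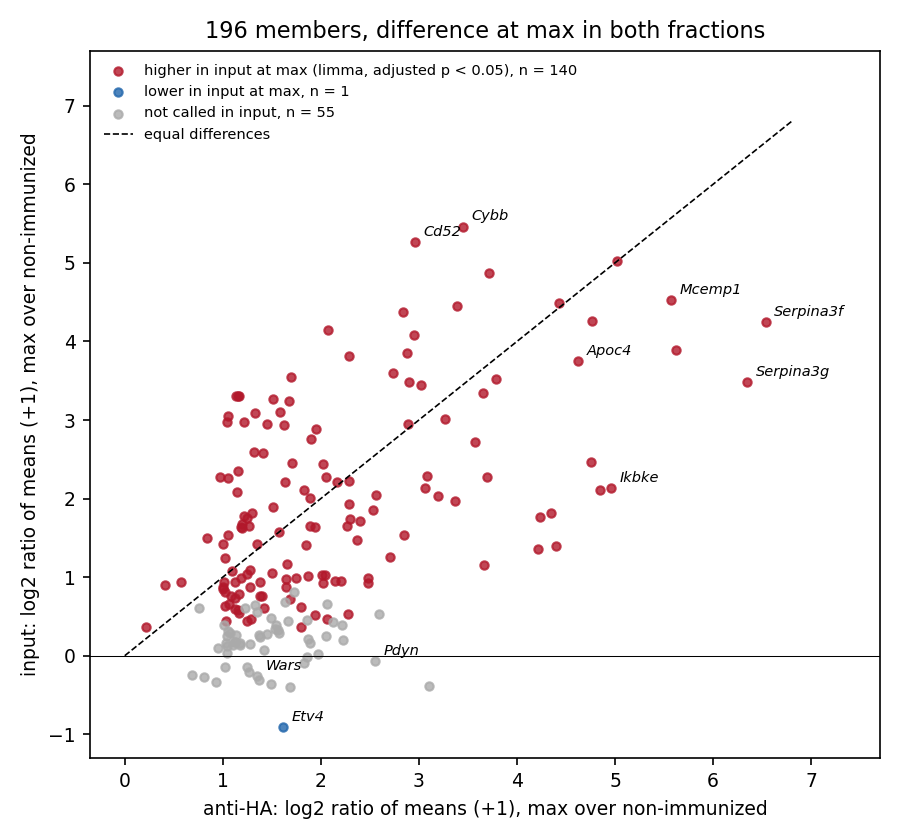
Each of the 196 points is a member; the axes give the log2 ratio of means (plus 1) of maximum over non-immunized mice, anti-HA on the horizontal and input on the vertical axis, with a dashed line where they are equal. For 59 members, Cd52 and Cybb among them, the input ratio is the larger one, and Etv4 lies below 0 in the input.

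At initiation 99 members had already risen in the input, and none fell, against 39.2% and 0.279% of all genes; the median log2 difference was 0.72, against 0.53 for all genes. None was lower in edgeR, nor at an unadjusted p under 0.05 in limma (0 members); after quantile normalization 47 were higher and 37 lower. Cd52 inputs were 203, 764, 318 and 221 at initiation and 15.1 to 25.2 (median 18.8) in non-immunized mice (4.03 ± 0.45 (SE), adjusted p = 3.72e-08 in limma). Slfn2, a regulator of leukocyte quiescence, had 36.2, 112, 36.3 and 52.7 at initiation and 0 to 5.72 (median 2.35) in non-immunized mice (4.19 ± 0.49 (SE), adjusted p = 7.32e-08 in limma). Neither gene had an initiation library within the non-immunized range. Ms4a6c was also called, with a difference of 3.78.

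From maximum to remission 82 members fell in the input and none rose, against 24.9% and 0.698% of all genes, with a median log2 difference of -0.56 against -0.34 for all genes. In edgeR 0 members were higher, and 1 was at an unadjusted p under 0.05 in limma. Quantile normalization gave 31 lower and 8 higher, and remission libraries 1 to 6 alone gave 50 lower. Cybb inputs were 6.09 to 31.1 (median 19.2) at remission and 50.6 to 189 (median 92.4) at maximum (-2.37 ± 0.49 (SE), adjusted p = 0.00213 in limma). The other leading genes were Lilrb4a, Cyp4f18, Ms4a6c, Mcemp1, Acp5 and Tnfaip2, which fell by 2.34, 2.20, 2.16, 2.01, 1.94 and 1.81 on the log2 scale. Pnpla7, a lysophospholipase, fell by 0.85. In anti-HA libraries 28 members had every remission library below every maximum library (5.73% of all genes), 7 of them in 3a and 21 in 3b. Without max input 2 the count that fell in the input was 39.

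At cure 57 members were still above non-immunized mice in the input and none was below, against 24.4% and 0.838% of all genes. They were 33 of the 86 members of 3a and 24 of the 110 of 3b. No member was lower in edgeR either, and 2 were at an unadjusted p under 0.05 in limma. The median log2 difference was 0.40, against 0.34 for all genes. Il2rg inputs were 27.3, 3.75, 16.2, 19.3 and 80.1 at cure and 0 to 2.42 (median 1.45) in non-immunized mice (3.24 ± 0.49 (SE), adjusted p = 1.8e-05 in limma). Cd52 inputs were 104, 36.3, 141, 110.2 and 425 at cure and 15.1 to 25.2 (median 18.8) in non-immunized mice (2.62 ± 0.42 (SE), adjusted p = 3.26e-05 in limma). Slc11a1, Nfkb2 and Slc15a3, a lysosomal transporter of histidine and small peptides, rose by 1.77, 1.57 and 1.92. Input 5 at cure stood above the other cure inputs, and 32 members passed without it; quantile normalization gave 21 higher and 17 lower, and a pseudocount of 10 gave 29 higher. All cure and relapse inputs lay apart from the non-immunized ones on principal component 3, and with a term for that split 20 members were higher at cure.

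At relapse 70 members were higher in the input than in non-immunized mice and 1 was lower, against 26.8% and 1.12% of all genes; 35 of the 70 were in each subcluster. The median log2 difference was 0.56, against 0.41 for all genes, and quantile normalization gave 21 higher and 12 lower. With the term for the input split on principal component 3, 24 were higher and 0 lower. Cyp4f18 inputs were 7.56, 16.4, 4.21 and 6.76 at relapse and 0 to 0.954 (median 0.467) in non-immunized mice (2.66 ± 0.45 (SE), adjusted p = 5.63e-05 in limma). Epsti1, an interferon-induced gene of macrophages, had 10.3, 42.2, 15.4 and 30.2 at relapse and 0.969 to 4.02 (median 2.83) in non-immunized mice (2.61 ± 0.45 (SE), adjusted p = 6.45e-05 in limma). Hlx, a homeobox factor, rose by 1.84. Hsd17b12 fell, with 176, 121, 130.4 and 109 at relapse and 167 to 259.9 (median 217) in non-immunized inputs (-0.68 ± 0.21 (SE), adjusted p = 0.0145 in limma), and the call was lost without relapse input 2 or 4.

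Of the 196 members 32 were in the authors' table of 204 genes for the Ifngr set. The comparison asks which of these genes depend on the interferon-γ receptor in Cx3cr1-CreER cells. Ifngr1, which encodes the ligand-binding chain of the receptor, had 81.0, 88.4, 127 and 76.7 in ko/fl and 299.9, 305, 299 and 232 in ko/wt anti-HA libraries, with no overlap (-1.62 ± 0.24 (SE), adjusted p = 0.000358 in limma). The labels do not say which exons were deleted. The table holds only genes that the authors selected on these same libraries, with a highest adjusted p of 0.0488 in the authors' deposited statistics. That a member was called below was thus largely fixed in advance. The limma calls and adjusted p-values are no independent evidence of a difference or of its direction. With limma on log2(value + 1), adjusted over the 204 genes, 28 members fell and 4 rose in ko/fl anti-HA libraries, against 61.3% and 36.3% of the table. The median log2 difference was -1.35 for the members and -1.05 for all genes of the table. In 26 members every ko/fl library lay below every ko/wt library (54.4% of the table), and in 2 above (25.5%). Quantile normalization, which moved the median of all genes by 0.58, left 18 members lower.

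Serpina3f, Il12rb1 and Il18bp had the largest differences between the genotypes. Serpina3f had 8.89, 4.57, 2.91 and 2.84 in ko/fl and 36.3, 103, 113 and 62.2 in ko/wt libraries, a log2 difference of -3.76 ± 0.43 (SE), adjusted p = 0.000139 in limma. Il12rb1 had 6.91, 1.52, 9.70 and 11.4 in ko/fl and 55.2, 76.6, 76.3 and 118 in ko/wt libraries (-3.47 ± 0.48 (SE), adjusted p = 0.000254 in limma). Il18bp had 26.7, 25.9, 67.0 and 8.52 in ko/fl and 159.9, 232, 271 and 98.4 in ko/wt libraries (-2.76 ± 0.55 (SE), adjusted p = 0.00185 in limma). Every ko/fl library was below every ko/wt library for these 3 genes, with a gap of several-fold for Serpina3f and Il12rb1 and a narrower one for Il18bp. Ly6a had 58.3, 48.8, 39.8 and 36.9 in ko/fl and 228, 401, 356 and 180.3 in ko/wt libraries (-2.59 ± 0.30 (SE), adjusted p = 0.000142 in limma). Serpina3g had 11.9, 12.2, 16.5 and 25.6 in ko/fl and 50.4, 94.2, 93.2 and 79.8 in ko/wt libraries (-2.22 ± 0.31 (SE), adjusted p = 0.000272 in limma). Batf2 and Rspo1, a secreted enhancer of WNT signalling, fell by 2.43 and 2.56, and Slamf8 by 1.99 on the log2 scale. In ko/fl libraries the anti-HA mean was no higher than the input mean for 6 of the 32 members (Il12rb1, Itgb7, Ly6a, Pdyn, Rspo1 and Serpina3f) and no higher than the IgG mean for 5 (Il12rb1, Itgb7, Pdyn, Serpina3g and Wars), while in ko/wt libraries it was above both for all 32. The ko/fl anti-HA values of these members are thus no higher than at least one of the controls; the part of that background was not tested. For Pdyn the ko/fl means were 25.3 in anti-HA, 63.3 in input and 27.8 in IgG, and the ko/wt means 103 in anti-HA, 60.1 in input and 36.7 in IgG. For Itgb7, whose ko/wt signal was also close to IgG, they were 10.5 in anti-HA, 14.6 in input and 36.7 in IgG in ko/fl and 38.3 in anti-HA, 12.6 in input and 32.2 in IgG in ko/wt libraries.

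Fcgr4 had 89.9, 108, 112 and 36.9 in ko/fl and 322, 384, 357 and 115 in ko/wt libraries (-1.73 ± 0.47 (SE), adjusted p = 0.00736 in limma), and 1 low ko/wt library came close to the highest ko/fl one. Gsdmd had 251, 230.1, 224 and 304 in ko/fl and 474, 447, 467 and 487 in ko/wt libraries (-0.90 ± 0.20 (SE), adjusted p = 0.00310 in limma), a smaller but tight difference. Hk3 had 167, 117, 152 and 170.4 in ko/fl and 346, 379.9, 416 and 377 in ko/wt libraries (-1.33 ± 0.21 (SE), adjusted p = 0.000635 in limma). Nod1, Samhd1, Itgal, Tlr12 and Mlkl fell by 1.29, 1.58, 1.73, 1.54 and 1.90. With a pseudocount of 0.1 Mlkl was no longer called (adjusted p = 0.0558 in limma). Pdyn, Itgb7, Exoc3l4, Lap3, Cacna1s, Etv4, Uhrf1bp1 and Slc31a2 also fell, by between 1.06 and 1.83. Besides that of Gsdmd, the smallest falls were in Wars, Trafd1, Clcn7 and Rnf19b, an E3 ubiquitin ligase, with -0.96, -0.87, -0.76 and -0.60. The calls of Clcn7 and Rnf19b were lost when single libraries were left out.

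The 4 members that rose in ko/fl microglia were Atf3, Dhrs3, Pld3 and Rnf149. Atf3 had 179.7, 133, 245 and 258 in ko/fl and 65.9, 78.6, 130.1 and 109 in ko/wt libraries (1.08 ± 0.31 (SE), adjusted p = 0.00892 in limma). Dhrs3 had 675, 666, 849 and 787 in ko/fl and 435, 405, 405 and 322 in ko/wt libraries (0.92 ± 0.21 (SE), adjusted p = 0.00338 in limma), with no overlap. Pld3 had 2681, 2502, 4261 and 4762 in ko/fl and 1749.7, 1659, 2631 and 2626 in ko/wt libraries (0.69 ± 0.30 (SE), adjusted p = 0.0451 in limma), and Rnf149, a lysosome-associated ubiquitin ligase, had 1010.3, 847, 1525 and 1335 in ko/fl and 677, 658, 804 and 898 in ko/wt libraries (0.61 ± 0.25 (SE), adjusted p = 0.0403 in limma). The groups overlap for Pld3 and Rnf149, and both calls were lost when single libraries were left out. The stage series had shown Dhrs3 as the member with the smallest ratio at maximum and Atf3 with 84.9 at initiation and 40.9 in non-immunized mice.

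**Figure D5:**
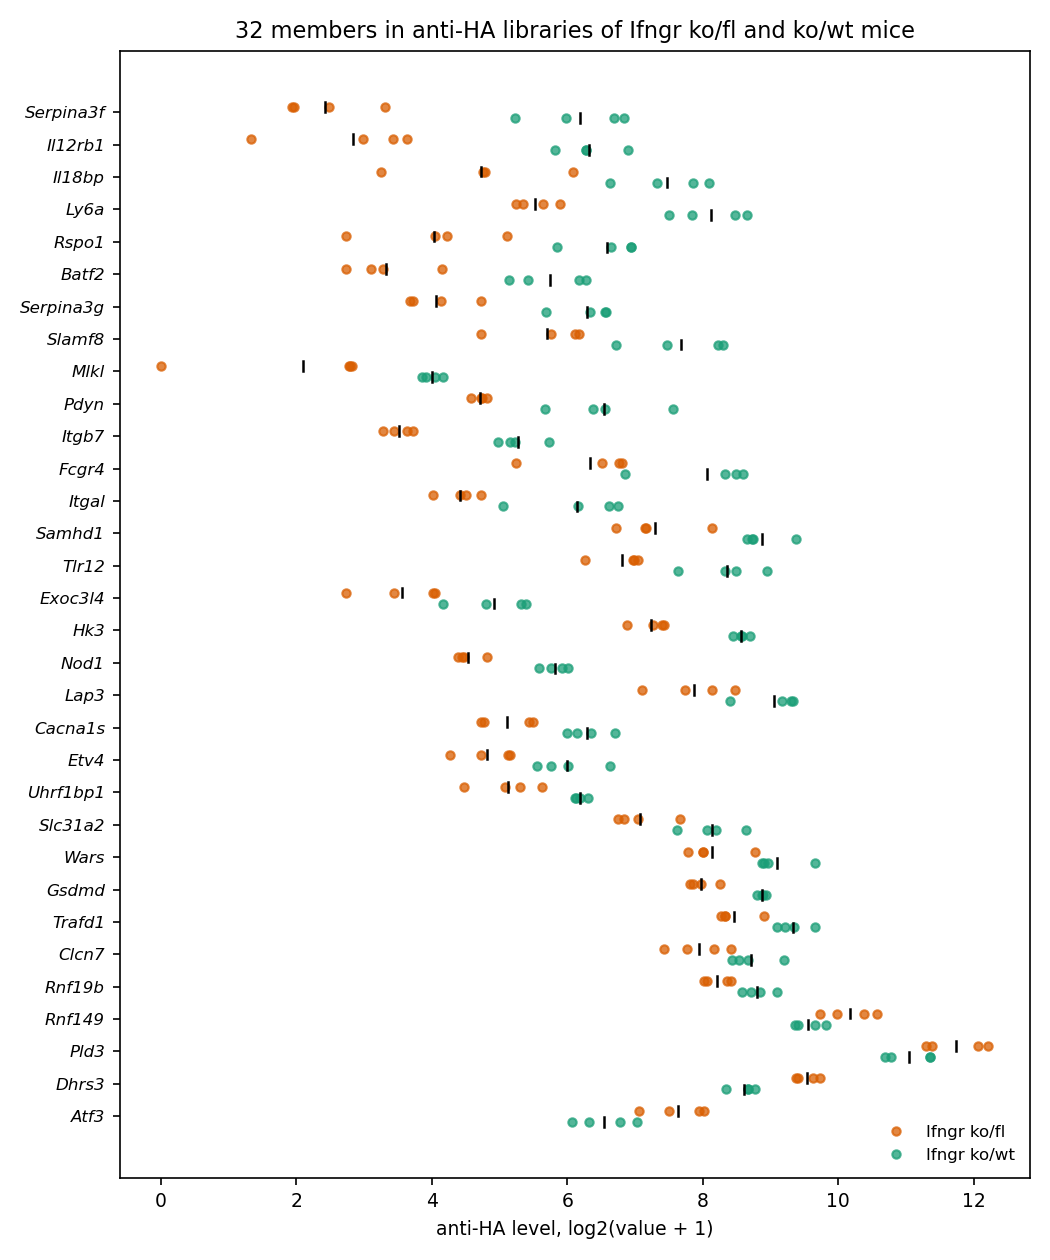
Anti-HA values (log2(value + 1)) of the 32 members in the Ifngr table, one point per library, ko/fl above ko/wt for each gene. In 26 members all ko/fl points lie below all ko/wt points, and Atf3 and Dhrs3 lie the other way.

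In the inputs of the same mice limma called none of the 32 members in either direction (0.49% of the table was higher and 0.49% lower), edgeR called 0 as well, and 3 had an unadjusted p under 0.05 in limma: Fcgr4 (-1.07), Cacna1s (-0.68) and Tlr12 (-0.66). No member separated the genotypes without overlap. The median log2 difference was -0.04, against -0.02 for the table. The members with the highest means over these inputs were Pld3, with 668, 718, 661 and 784 in ko/fl and 796, 736, 758 and 806 in ko/wt inputs, and Rnf149, with 173, 193, 241 and 269 in ko/fl and 222, 195, 221 and 243 in ko/wt inputs.

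The study also sorted CD25+ T cells from the brains of ko/fl and ko/wt mice. In the authors' deposited table of 8627 genes for these cells, 162 members were listed. None of them passed the authors' adjusted p of 0.05, which 0.209% of the genes in the authors' deposited table did. At 0.1, passed by 1.19% of that table, the authors' deposited table held 3 members: Slc15a3 at 1.71 with an adjusted p of 0.0972, Pld3 at -0.49 with 0.0849 and the copper importer Slc31a1 at -4.31 with 0.0772. These are log2 fold changes of ko/fl over ko/wt in the authors' deposited table, and the genes were named after their values were seen. The value of Slc31a1 rests largely on ko/wt library 4. Its CD25+ values were 0.877, 0, 0, 16.9 and 1.95 in ko/wt (n = 5). In ko/fl (n = 6) they were 0, 0.879, 0, 0, 0 and 0.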

How the data were processed

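The deposited tables hold a signal per gene and library, the authors' normalized read counts: 100% of values were whole multiples of a library's step, with a tolerance of 0.01 step and 1e-07 per multiple, so they are counts divided by size factors. The authors also deposited log2 fold changes, p-values and cluster numbers. The sign of the fold changes was checked against the library values for the 32 members in the Ifngr anti-HA comparison. In T cells only 2 members, Slc15a3 and Slc31a1, have library values to check against. The genome build was mm10, per the submitters' processing notes; which aligner, counter, annotation and strand setting were used is not given in the sources used here. The stage table holds 716 genes, each of which passed both the authors' 0.05 threshold and 2-fold in 1 or more of 15 anti-HA comparisons, so shares of all genes refer to chosen genes.

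The design had assumed this unit. Tests used limma 3.58.1 (R 4.3.3) on log2(value + 1) with Benjamini-Hochberg adjustment over the whole table, two-sided, at 0.05. On simulated data limma recovered 83% of changes of 1 log2 unit for maximum inputs, 77% for cure inputs and 57.7% for Ifngr anti-HA libraries. It called 2.33%, 2.52% and 1.95% of unchanged genes. A member that was not called may therefore still have changed. Alternatives were edgeR 4.0.16 (quasi-likelihood, on recovered whole reads), quantile normalization, other pseudocounts, a minimum mean of 10, fits on the compared groups alone, a replicate block and leaving out single libraries. Fold changes on this scale understate those of low genes. Descriptive values used Python 3.11.15 with pandas 2.3.3.

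Members, gene lists and tests were chosen with earlier results of these data known. Roles were assigned by hand from gene function after the members were known. Values are given for the members with the highest anti-HA mean at maximum in each functional list (up to 4), the 12 highest and the 12 with the largest ratio, up to 8 called in each direction by smallest p in each tested comparison, and all in the Ifngr table. Read assignment is uncertain for members with similar copies or close neighbours (Serpina3f, Serpina3g, Bcl2a1a, Ms4a6c, Naip2, Ly6a, Ly6e, Lilrb4a, Ftl1, Apoc1 and Apoc4). Coordinates come from GENCODE for 193 of 196 members.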

Additional observations from a re-analysis of the deposited data

Results flagged for a closer look

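Of 244 checks of groups of 4 to 8 libraries, 22 had a highest or lowest library that stood apart. Its gap to its nearest neighbour passed Dixon's 95% critical value, where chance gives about 1 in 20. Of these, 13 were among 144 checks of single members in anti-HA stage libraries, 5 among 64 in the Ifngr anti-HA libraries and 4 among 36 of library medians.

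Anti-HA cure 5 was the high library in 7 of the 13. It had 73.1 for Serpina3f against 4.74 to 22.9 in the other cure libraries, 147.7 for Serpina3g against 2.71 to 33.1, 79.2 for Il12rb1 against 6.43 to 21.3, and 249.7 for Ly6a against 39.6 to 100.1. It also had 51.3 for Xdh against 11.9 to 22.9, 10346 for Psap against 3068 to 4571, and 2546 for Ftl1 against 1025 to 1291. The input of cure 5 was high as well, with a median log2(value + 1) of 4.63 over the members of 3a against 3.16 to 3.56 in the other cure inputs.

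Anti-HA initiation 2 had 230.8 for Serpina3f against 9.01 to 33.4 in the other initiation libraries, 332 for Serpina3g against 13.5 to 41.8, and 143.8 for Xdh against 46.8 to 54.1. Its input had a median of 5.73 over the members of 3b against 4.70 to 4.77. Non-immunized 5 was the low library for Grn, with 4180 against 7188 to 8951, for Cyba, with 1823 against 3795 to 4786, and for Lamp1, with 2937 against 4149 to 4794. Its medians were 4.51 for 3a against 5.10 to 5.24 and 6.30 for 3b against 6.96 to 7.10.

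In the Ifngr set, ko/fl 4 was listed at 0 for Mlkl against 5.82 to 6.09 in the other ko/fl libraries and had 480 for Trafd1 against 308 to 322. The library ko/fl 3 had 75.7 for Tlr12 against 124.9 to 130.6. The library ko/wt 4 had 665 for Samhd1 against 403 to 427 and 807 for Wars against 468 to 499.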

How the results depend on the processing

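Counts of members called in the inputs changed with the scaling and with other settings. Under quantile normalization, which moved the median of all genes by -0.92, -1.18, 0.48, -0.54 and -0.61 (log2), counts higher and lower were 47 and 37 at initiation, 61 and 54 at maximum, 8 and 31 for remission against maximum, 21 and 17 at cure and 21 and 12 at relapse; in Ifngr ko/fl anti-HA 18 were lower. For remission against maximum a pseudocount of 0.1 gave 43 lower and remission 1 to 6 alone 50. At cure a pseudocount of 10 gave 29 higher and a term for the side of the input split 20. This split is principal component 3 (4.01% of variance), which sets all cure and relapse inputs and remission 7 and 8 apart. At relapse this term gave 24 higher and 0 lower, and a fit on the 2 groups alone 2 lower. The cause of these shifts was not tested.

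Leaving out single libraries gave 71 to 102 higher at initiation, 130 to 140 higher and 1 to 2 lower at maximum, 0 to 1 higher and 39 to 92 lower for remission against maximum, 32 to 74 higher and 0 to 2 lower at cure, and 50 to 73 higher and 0 to 1 lower at relapse. In Ifngr ko/fl anti-HA it gave 2 to 4 higher and 26 to 28 lower. The 39 came without max input 2 and the 32 without cure input 5. Rnf149 in Ifngr inputs ran from -0.13 to 0.0791. Of 1310 checks of named members 1269 kept their direction and call, 38 lost the call and 3 turned direction, all Rnf149.

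Alternatives chosen after seeing the data left out anti-HA libraries that stood apart. Without non-immunized 5 the 3a ratio at maximum was 1.88, the 3b ratio at cure 0.0357 and its share left 2.42%; without cure 5 the 3b values at cure were -0.0829 and -6.03%. Without initiation 2, 66 members separated maximum from initiation (14.7% of all genes).

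Replicate numbers did not pair every sample of the groups compared. In no tested comparison was every correlation of same-numbered libraries over 0.1, and in none did every library correlate best with its own number. Some pairs did deviate together: 4 of 6 passed 0.1 for maximum and non-immunized inputs, and Ifngr anti-HA pairs ran up to 0.584. Principal component 2 of the inputs (5.76% of variance) followed the numbers at maximum and remission. Maximum inputs 1 to 3 lay at 2.66 to 4.46 and inputs 4 to 6 at -7.79 to -5.73. Remission inputs 1 to 3 lay at 2.67 to 8.36 and inputs 4 to 6 at -6.95 to -1.24. Anti-HA and input libraries of one stage with the same number did deviate together at maximum, with correlations of 0.224 to 0.45 in 6 of 6. With a replicate block 1 member was lower at initiation and 2 at maximum.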
